A study of Mus musculus with 4 samples.

Results

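The genes described here are 10 markers of amacrine and ganglion cells of the retina, *Gad1*, *Gad2*, *Slc32a1*, *Calb2*, *Tfap2b*, *Pou4f1*, *Rbpms*, *Nefl*, *Nefm* and *Sncg*, measured in mouse lenses with and without S100A4. They were chosen by name, by matching gene symbols to the rows of the expression table, and all 10 were found among its 14924 genes. S100A4 is a small calcium-binding protein that the mature fiber cells of the lens make in quantity. The comparison asks which of these neuronal transcripts differ between *S100A4*-/- and wild type (WT) lenses.

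Poly(A) RNA was sequenced from 2 *S100A4*-/- and 2 WT libraries, with 6 to 12 lenses pooled for each, at an age of 1 month. *S100A4*-/- mice carry a null allele in every cell of the body and were kept on a C57BL/6J background, and the WT mice were their littermates. The labels give C57BL/6 as the strain of all 4 libraries, they name no treatment, and they do not give the sex of the animals in each pool. Reads on genes totalled 81602367 and 74108017 for *S100A4*-/-, and for WT 70253985 and 68038158. A normalised value is the number of reads on a gene divided by a size factor of its library. The value of 1 read was 0.856 and 1.01 in *S100A4*-/-, and 1.04 and 1.09 in WT, so that values can be read roughly as reads. *S100a4* itself had values of 14.6 and 18.2 in *S100A4*-/- and 14420 and 14385 in WT, so all 4 libraries match their labels. The tissue was checked with 14 lens genes. Among them *Crygs*, a crystallin of the fiber cells, stood at 71992 TPM, a read count scaled to gene length and library size, in *S100A4*-/- and 76131 in WT, and *Mip*, the fiber water channel, had from 641425 to 760386 reads per library.

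Amacrine cells are the inhibitory interneurons of the inner retina. Most of them release GABA or glycine onto bipolar, amacrine and ganglion cells. Ganglion cells are the output neurons of the eye, whose axons form the optic nerve and are filled with neurofilaments. Several of the markers are shared: a displaced class of amacrine cells lies among the ganglion cells, calretinin is found in both types, and GABA-making enzymes are also known from other neurons and from non-neuronal tissue, the lens among them.

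Of the 10 markers, 7 were higher in *S100A4*-/- lenses and none was lower. The test was limma over the 14780 genes that reached a value of 10 in any library, and a gene was called at a change of at least 2-fold with a Benjamini-Hochberg adjusted p of at most 0.05. Of all genes tested, 3.65% were called higher and 0.0744% lower, 3.72% in all. The 7 were *Gad1*, *Gad2*, *Slc32a1*, *Calb2*, *Tfap2b*, *Rbpms* and *Nefl*, and the 3 without a call were *Nefm*, *Sncg* and *Pou4f1*. Of the 10, *Gad2* alone reached the minimum value in *S100A4*-/- only, so that it was tested because it was high there. In all 10, both *S100A4*-/- libraries lay above both WT libraries, a pattern held by 23.7% of all genes tested. The median log2 fold change of the markers was 1.62, against -0.01 over all genes tested. The genes whose mean value lay in the range of the markers, from 10.1 to 159.8, numbered 4710, of which 8.68% were called higher, and their median log2 fold change was 0.08. In whole lenses, more cells of a type and more RNA per cell, or fewer cells and less RNA, cannot be told apart. Calls with so few libraries rested on both *S100A4*-/- pools: without the first or without the second of them, limma called 0 of the 10, with 7 and 8 at an unadjusted p under 0.05, while all 10 stayed positive. Leaving out either WT library also left all 10 positive, but without the second of them *Slc32a1* lost its call and *Nefm* gained one. Limma without a trend of variance with expression called 0, with 7 at an unadjusted p under 0.05.

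**Figure D1:**
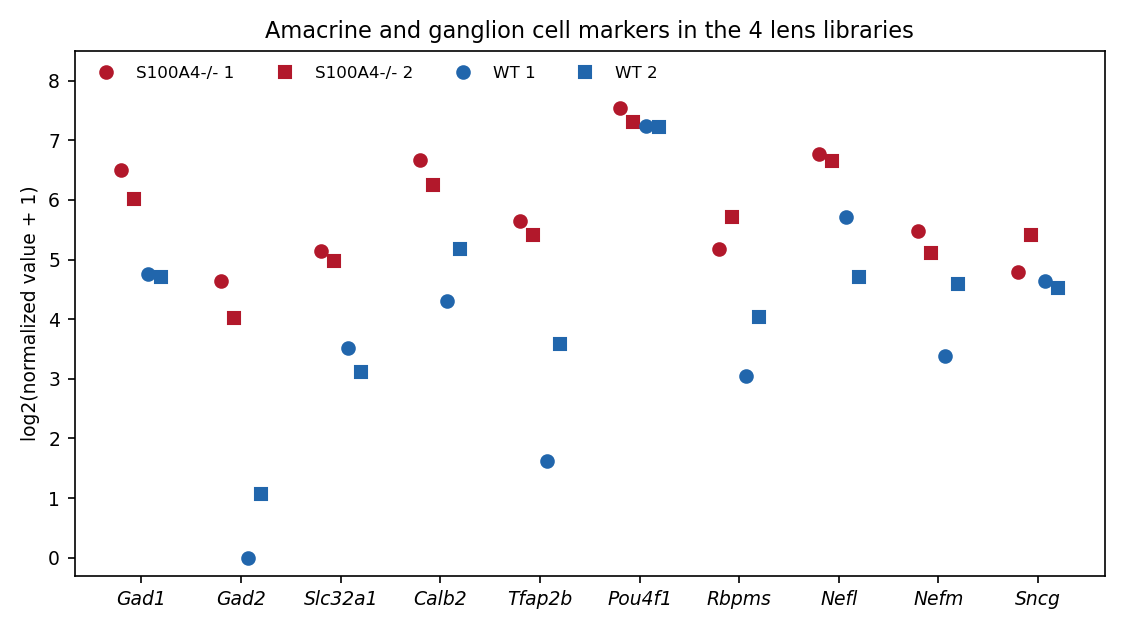
Normalised value of each of the 10 markers in the 4 libraries, given as log2(value + 1), with 1 point per library, *S100A4*-/- in red and WT in blue, circles for replicate 1 and squares for replicate 2. Both *S100A4*-/- points lie above both WT points for every marker, widely for *Gad2* and *Tfap2b* and narrowly for *Pou4f1* and *Sncg*.

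The plot of values by library shows how the distance between the groups varied among the markers. The first genes to describe are those by which a neuron makes and packs GABA. All 3 of them were higher in *S100A4*-/-. *Gad1* encodes the larger glutamate decarboxylase, which makes GABA from glutamate, and lies on chromosome 2 from 70553072 to 70602014 on the plus strand (GRCm38). Its values were 89.9 and 63.8 in *S100A4*-/- and 26.1 and 25.2 in WT. The WT libraries nearly coincided and the *S100A4*-/- libraries stood apart from them and from each other. The log2 fold change of *Gad1* was 1.53 (SE 0.31, limma adjusted p = 5.59e-04).

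*Gad2* encodes the smaller decarboxylase, which is tied to synaptic vesicles, and lies on chromosome 2 from 22622205 to 22693874 on the plus strand. In *S100A4*-/- it had 28 reads in one library and 15 in the other, and in WT 0 and 1, so that it was close to undetected in WT lenses at this depth. The ratio of the summed reads, scaled by the size factors, was 37.3 with an exact 95% interval from 6.35 to 1509, which covers counting error only. The fitted log2 fold change of 3.80 (SE 0.93, limma adjusted p = 0.00544) depends on the pseudocount of 1, since a group with a single read sets no firm base.

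*Slc32a1* encodes the vesicular transporter that loads GABA and glycine into synaptic vesicles and lies on chromosome 2 from 158610767 to 158615748 on the plus strand. Its values were 34.3 and 30.4 in *S100A4*-/- and 10.4 and 7.66 in WT. The groups were well separated and the libraries of each group lay close together. The log2 fold change was 1.74 (SE 0.49, limma adjusted p = 0.0183). This call was the least firm of the 7: DESeq2 on the recovered reads gave an adjusted p of 0.103 for *Slc32a1*, and quantile normalization gave 0.0992 with limma. An antisense transcript, *Gm14205*, shares 697 exonic bases with *Slc32a1*, and whether reads were counted by strand is not given in the sources used here, so reads of the pair cannot be told apart there.

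*Calb2* and *Tfap2b* were both higher. *Calb2* encodes calretinin, a calcium-buffering protein of amacrine and ganglion cells, and lies on chromosome 8 from 110137502 to 110168210 on the minus strand. Its values were 100.2 and 75 in *S100A4*-/- and 18.8 and 35.0 in WT. Both groups spread, but the lower *S100A4*-/- library stood above the higher WT library. The log2 fold change of *Calb2* was 1.72 (SE 0.31, limma adjusted p = 1.39e-04).

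*Tfap2b* encodes AP-2 beta, a transcription factor required for amacrine and horizontal cells, and lies on chromosome 1 from 19208914 to 19238576 on the plus strand. It was measured at 48.8 and 41.6 in *S100A4*-/- and at 2.09 and 10.9 in WT. The low WT library held 2 reads of this gene, so that the WT level was poorly fixed and the *S100A4*-/- level was not. The log2 fold change of *Tfap2b* was 2.92 (SE 0.55, limma adjusted p = 2.60e-04). It was the second highest of the markers after that of *Gad2*, but lay above it at a pseudocount of 5 (2.23 against 2.13). It was 1.95 without the first WT library and 3.90 without the second, past the threshold in both cases.

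Of the 5 ganglion cell markers, 2 were called higher. *Rbpms* encodes an RNA-binding protein used to label ganglion cells as a class, and lies on chromosome 8 from 33782643 to 33929863 on the minus strand. Its values were 35.1 and 51.7 in *S100A4*-/- and 7.31 and 15.3 in WT. The groups did not overlap, although the libraries within each of them differed. The log2 fold change of *Rbpms* was 1.90 (SE 0.45, limma adjusted p = 0.00390).

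*Nefl* and *Nefm* encode the light and medium neurofilament subunits, which assemble together along axons. They are neighbours on chromosome 14, *Nefl* from 68083863 to 68089095 on the plus strand and *Nefm* from 68082590 to 68124846 on the minus strand, and share 1108 exonic bases in the annotation. *Nefl* had values of 107.9 and 99.3 in *S100A4*-/- and 51.2 and 25.2 in WT. Its log2 fold change was 1.50 (SE 0.28, limma adjusted p = 2.27e-04). That of *Nefl* also turned on its WT values: it was 1.997 without the first WT library. Without the second it was 1.003, barely past the 2-fold threshold. *Nefm* had 43.7 and 33.4 in *S100A4*-/- and 9.40 and 23.0 in WT, with a log2 fold change of 1.31 (SE 0.44, 95% interval 0.43 to 2.20) that missed the threshold (limma adjusted p = 0.0632). The WT libraries went opposite ways for the pair: the first was higher for *Nefl* and lower for *Nefm*. The result for *Nefm* turned on its WT values, with a log2 fold change of 0.71 without the first of them (limma adjusted p = 0.458) and 1.92 without the second (limma adjusted p = 0.00361). Without that second library *Slc32a1* no longer passed (limma adjusted p = 0.0530). Since the strand setting of the counting is not given, reads on the shared bases could have gone to either gene.

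*Sncg*, which encodes gamma-synuclein, a protein of ganglion cell bodies and axons, lies on chromosome 14 from 34370274 to 34374789 on the minus strand. Its values were 26.5 and 41.6 in *S100A4*-/- and 24.0 and 21.9 in WT, so that the gap between the groups was smaller than the gap within *S100A4*-/-. The log2 fold change of *Sncg* was 0.52, with a 95% interval from -0.27 to 1.30 (limma adjusted p = 0.537). *Pou4f1*, which encodes the ganglion cell transcription factor BRN3A, lies on the same chromosome from 104461676 to 104467999 on the minus strand. It had the highest values of all 10 in WT, 149 and 148, and in *S100A4*-/- 185 and 157. Its log2 fold change of 0.20 had an interval from -0.13 to 0.53 (limma adjusted p = 0.584), which leaves out a 2-fold change in either direction.

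**Figure D2:**
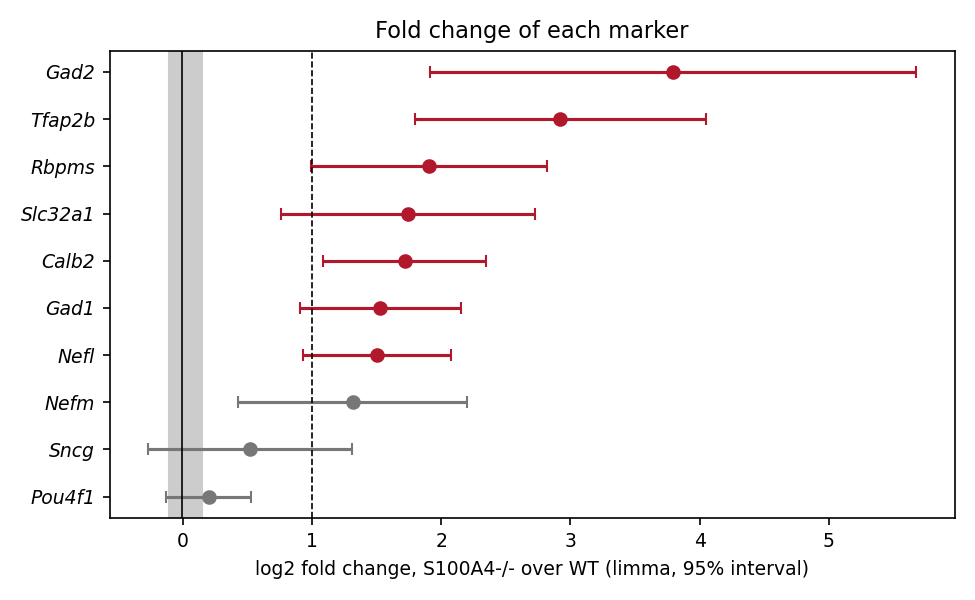
Log2 fold change (*S100A4*-/- over WT, on the log2(value + 1) scale) of each of the 10 markers, with points for the limma estimate and bars for its 95% confidence interval, red for called genes, a dashed line at a 2-fold change, and a grey band from the lower to the upper quartile of all genes tested (-0.11 to 0.15). The intervals of the 7 called genes and of *Nefm* lie above 0, and those of *Sncg* and *Pou4f1* cross it.

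In the plot of fold changes, the bars differ in width: the interval of *Gad2*, with 44 reads in 4 libraries, ran from 1.92 to 5.68, and that of *Pou4f1*, with at least 135 reads in every library, was the narrowest. The 8 markers at or above a log2 fold change of 1, *Nefm* included (though not without the first WT library), compare with 6.77% of all genes tested at that size without a test.

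All of the markers were scarce. Per length, 9 of the 10 stayed under 1 TPM in every library, the exception being *Calb2*, which stood at a mean of 1.07 TPM in *S100A4*-/- and 0.318 in WT. In *S100A4*-/- lenses the order per length was *Calb2*, *Sncg* (0.836 TPM), *Pou4f1* (0.774), *Nefl* (0.647), *Slc32a1* (0.244) and *Gad1* (0.214), followed by *Tfap2b*, *Nefm*, *Rbpms* and *Gad2* at or under 0.151. In WT lenses *Pou4f1* (0.656 TPM) and *Sncg* (0.556) came first and *Gad2* last at 0.00191. Summed over the 10 genes, the markers had 812 and 601 reads in *S100A4*-/-, and 286 in each WT library. *Pou4f1* made up 26.6% and 25.8% of the summed value in *S100A4*-/- and 50% and 47.2% in WT, so the summed value without it was 510 and 452 against 149 and 165. Within *S100A4*-/-, the first library was the higher of the pair for 8 markers, all but *Rbpms* and *Sncg*. Within WT, each library was the higher for 5.

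**Figure D3:**
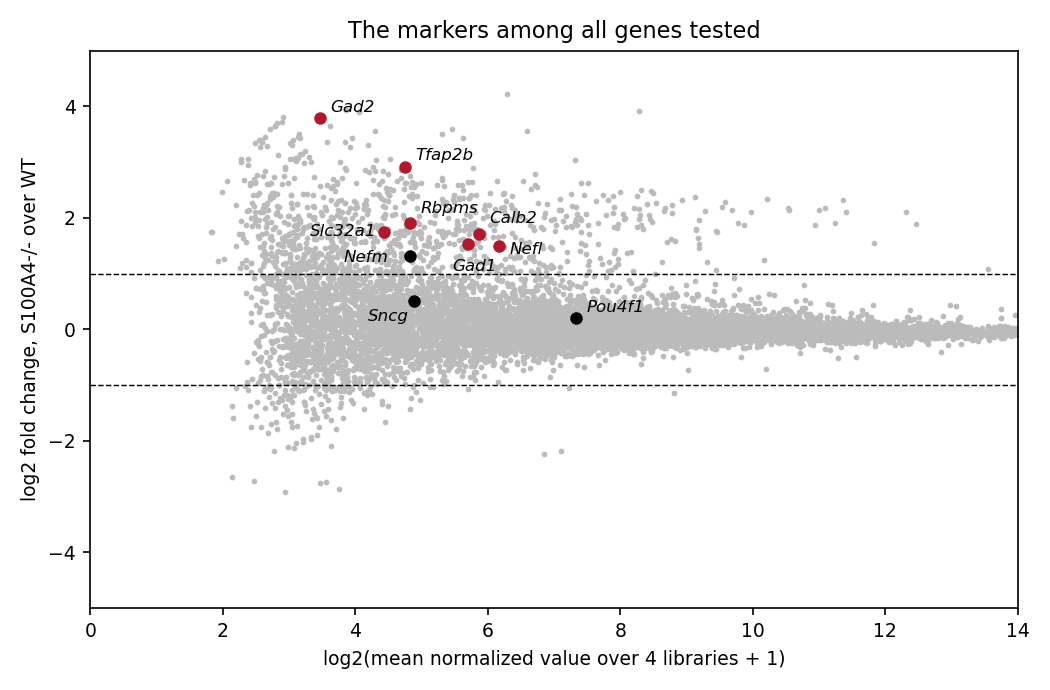
Log2 fold change (*S100A4*-/- over WT) against log2(mean normalised value + 1) for the genes tested, in grey, with the 7 called markers in red, the other 3 in black, and dashed lines at a 2-fold change. The markers lie in the lower part of the range of expression, where the grey cloud is wide. A further 159 genes lie beyond the axes and were not drawn.

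The plot of the markers among all genes shows why they are read against genes of like level. *Pou4f1* and *Sncg* sit inside the cloud, and *Gad2* and *Tfap2b* near its upper limit. Of the genes in this range of mean value over the 4 libraries, 8.68% were called higher, more than the 3.65% of all genes.

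Upstream sequences are shown for the markers at the extremes of the response, *Gad2* and *Tfap2b* with the highest fold changes, *Pou4f1* with the lowest, and *Gad1* as the partner of *Gad2*. RefSeq (GRCm38.p6) gave the 250 bases before the start site for 6 of the 10 markers, which were *Gad1*, *Gad2*, *Slc32a1*, *Tfap2b*, *Pou4f1* and *Sncg*. The RefSeq start need not be the outermost start of the gene: for *Gad1* and *Tfap2b* the window lies inside the span given above. On both strands, the letters GCCNNNGGC, a core bound by AP-2 factors that reads alike on both strands, with each site counted once, were present in 13.7% of all 32841 windows of this length and, among the 6 markers, only in that of *Gad2*, which held 2 sites, 1 of them in the stretch shown. TAATCC, the letters bound by the photoreceptor factor CRX, was present in 6.25% of all windows and, among the 6, only in that of *Gad1*. The stretches of *Gad1* (chr2:70561879-70562041, plus strand) and *Gad2* (chr2:22622077-22622204, plus strand) that no annotated exon covers read as follows, with the match in capitals, which in *Gad1* is on the reverse strand.
Gad1: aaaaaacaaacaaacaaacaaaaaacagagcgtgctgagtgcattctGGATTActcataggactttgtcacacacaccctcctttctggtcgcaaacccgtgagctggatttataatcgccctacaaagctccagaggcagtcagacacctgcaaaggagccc
Gad2: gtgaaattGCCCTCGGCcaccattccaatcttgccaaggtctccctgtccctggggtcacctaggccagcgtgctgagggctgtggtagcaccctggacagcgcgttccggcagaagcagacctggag

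The number of CpG dinucleotides in the 250 bases had a median of 6 over all windows (quartiles 2 and 16) and differed widely among the markers. It was 5 in *Tfap2b*, 7 in *Sncg*, 12 in *Slc32a1*, 13 in *Gad2*, 17 in *Gad1* and 47 in *Pou4f1*, and 99.8% of all windows held no more than *Pou4f1*. The windows of *Tfap2b* (chr1:19211804-19212053, plus strand) and *Pou4f1* (chr14:104468000-104468249, minus strand), with CpG in capitals, were the poorest and the richest.
Tfap2b: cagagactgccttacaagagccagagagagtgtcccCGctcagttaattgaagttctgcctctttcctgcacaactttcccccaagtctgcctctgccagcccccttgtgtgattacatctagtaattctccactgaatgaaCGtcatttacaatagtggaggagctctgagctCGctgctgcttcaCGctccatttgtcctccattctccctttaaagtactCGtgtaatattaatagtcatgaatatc
Pou4f1: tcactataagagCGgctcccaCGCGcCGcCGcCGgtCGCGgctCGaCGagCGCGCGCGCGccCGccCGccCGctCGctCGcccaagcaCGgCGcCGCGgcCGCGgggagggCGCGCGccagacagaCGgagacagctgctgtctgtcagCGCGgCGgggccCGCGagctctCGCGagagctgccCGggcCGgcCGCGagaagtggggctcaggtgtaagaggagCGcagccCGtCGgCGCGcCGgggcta
These matches and counts describe the letters of the windows; binding and methylation were not measured.

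Of 32 other genes used to recognise amacrine cells, 15 were analysed here, of which 5 were higher in *S100A4*-/- and 1 was lower, beside 3.65% and 0.0744% of all genes, and their median log2 fold change was 0.13. Of the 5, *Slc17a8*, *Gjd2* and *Elavl3* reached the minimum value in *S100A4*-/- only, so that they were tested because they were high there, and the count of 5 gives no support by itself. Leaving out the first or the second *S100A4*-/- library gave 2 higher calls each time. The most abundant of the 5 per length was *Penk*, which encodes proenkephalin, the precursor of opioid peptides, with values of 1383 and 1390 in *S100A4*-/- and 328 and 414 in WT (log2 fold change 1.91). *Slc6a9*, which encodes the glycine transporter GLYT1 of glycinergic amacrine cells, had 847 and 897 against 254 and 310 (log2 fold change 1.63). *Slc17a8*, the vesicular glutamate transporter VGLUT3 of a small amacrine class, had 43.7 and 46.6 against 4.18 and 9.85 (log2 fold change 2.62). The groups of these 3 genes were far apart compared with the spread within them.

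*Gjd2*, the gap junction protein connexin 36 of the AII amacrine cell, and *Elavl3*, a neuronal RNA-binding protein, were also higher, with log2 fold changes of 2.91 and 2.66. *Cck*, the precursor of the peptide cholecystokinin, was the gene that was lower, at 87.3 and 105.4 in *S100A4*-/- and 210 and 189 in WT (log2 fold change -1.05), close to the 2-fold threshold. That call was lost without the first *S100A4*-/- or the first WT library. The 3 genes of this list with values above that of *Penk* gave no call. *Tfap2a*, which encodes AP-2 alpha, the close relative of AP-2 beta and a factor of the lens epithelium as well, had values of 1544, 1545, 1510 and 1537 in the order *S100A4*-/- then WT (log2 fold change 0.02, 95% interval -0.11 to 0.15). *Meis2* and *Dab1* had log2 fold changes of -0.12 and 0.05. The remaining 17 genes of the list, among them *Th*, *Chat* and *Slc6a5*, had no row in the expression table. That table kept genes that reached 10 reads somewhere.

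Of 32 further ganglion cell genes, 23 were analysed, of which 6 were higher and 0 were lower by limma. The shares over all genes tested were 3.65% and 0.0744%. The median log2 fold change of the 23 was 0.98. Of the 23, 8 reached the minimum value in *S100A4*-/- only and 0 in WT only. These 8 were tested because they were high in *S100A4*-/-, so the count and the median give no support by themselves. At an unadjusted p under 0.05, 1 of the 23 was lower, and neither DESeq2 nor edgeR called a gene lower, while they called 4 and 6 higher. Without the first or the second *S100A4*-/- library limma called 0 higher, with 8 and 6 at an unadjusted p under 0.05. *Thy1*, which encodes a surface glycoprotein of ganglion cell axons, had values of 53.9 and 67.9 in *S100A4*-/- and 23.0 and 14.2 in WT (log2 fold change 1.69). *Ina*, alpha-internexin, a further filament subunit of axons, had 40.2 and 51.7 against 4.18 and 24.1 (log2 fold change 2.03). The WT libraries differed for *Ina* in the same direction as for *Nefm*: its log2 fold change was 0.89 and no longer called without the first of them (limma adjusted p = 0.229), and 3.17 without the second. DESeq2 did not call *Ina* either (adjusted p = 0.662).

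*Kcng4*, a modifier subunit of potassium channels found in alpha ganglion cells, had values of 45.4 and 52.7 against 3.13 and 15.3 (log2 fold change 2.60, or 1.61 and 3.59 without the first or the second WT library). *Chrnb3* and *Chrna6* encode nicotinic acetylcholine receptor subunits that occur together. *Chrnb3* had 43 and 15 reads against 5 and 3 (log2 fold change 2.26, or 1.65 and 2.87 without the first or the second *S100A4*-/- library). *Chrna6* had 29 and 27 reads against 2 and 0, a scaled ratio of 24.3 with an exact 95% counting interval from 6.42 to 205.7. Its log2 fold change was 4.76 without the first WT library and 3.13 without the second. *Spp1*, osteopontin, which alpha ganglion cells and macrophages make, had 15 and 13 reads against 0 and 0, and was at least 3.96-fold higher against the value of 3 reads per library. Each of these 4 genes had 3 reads or fewer in at least 1 WT library. *Chrnb3*, *Chrna6* and *Spp1* entered the test only through *S100A4*-/-, where they reached the minimum value, and DESeq2 did not call *Chrnb3* (adjusted p = 0.0563).

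The most abundant of the ganglion cell genes was *Uchl1*, a ubiquitin hydrolase, at 419 TPM in *S100A4*-/- and 467 in WT. Its log2 fold change was -0.19 (limma adjusted p = 0.00180), well under 2-fold, and it made up 95.6% of the summed value of the list. *Jam2*, *Nell2* and *Cdk14*, the next in level, had log2 fold changes of 0.14, 0.12 and 0.01 without a call. *Slc17a6*, the vesicular glutamate transporter by which ganglion cells signal, had 2 and 11 reads against 2 and 0 in WT. *Pou4f2*, *Atoh7*, *Eomes* and 6 more likewise had no row in the expression table.

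GABA leaves the synapse by transporters and is broken down by GABA transaminase. Of 5 genes compared for these steps, 1 was higher, beside 3.65% of all genes tested. *Slc6a13*, a GABA transporter known from epithelia and meninges, had values of 531 and 472 in *S100A4*-/- and 114 and 180 in WT (log2 fold change 1.80). The groups were well separated. Without the second WT library, 2 of the 5 were called.

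The related transporters *Slc6a12* and *Slc6a11* missed the threshold with log2 fold changes of 1.27 and 0.52 (limma adjusted p = 0.0706 and 0.0528). That of *Slc6a12* was 0.33 without the first WT library and 2.21 without the second, where it was called. *Abat*, GABA transaminase, and *Aldh5a1*, which acts after it, had log2 fold changes of 0.22 and -0.15. Breakdown enzymes were more abundant than the enzymes of synthesis: *Abat* stood at 4.01 TPM in *S100A4*-/- and 3.38 in WT, against 0.214 and 0.0693 for *Gad1*.

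Of 23 genes for GABA receptor subunits and their anchors, 18 were analysed and 17 tested, of which 2 were higher and 0 lower by limma, with 1 lower at an unadjusted p under 0.05 and 0 lower by DESeq2 or edgeR. DESeq2 called 1 of the 17 higher, *Gabrq* being lost (adjusted p = 0.0622). The share of all genes called higher was 3.65%. The 2 were *Gabrr1*, a rho subunit typical of bipolar cell terminals (37 and 30 reads against 3 and 7), and *Gabrq*, the theta subunit (34 and 37 reads against 3 and 11), with log2 fold changes of 2.42 and 2.21. The highest in value of these genes were *Gabrg3*, *Nlgn2*, *Gabra3* and *Gphn*, with log2 fold changes of -0.26, 0.21, 0.01 and -0.04. *Gabbr1*, the first subunit of the metabotropic receptor, had values of 317 and 320 in *S100A4*-/- and 201 and 228 in WT, a log2 fold change of 0.57 (limma adjusted p = 0.00212) under the 2-fold threshold. Neither receptor gene was called without the first or without the second *S100A4*-/- library, where 4 receptor genes each time had a higher level at an unadjusted p under 0.05. Without the first WT library, 1 was called and *Gabrq* was lost, its log2 fold change being 1.38, against 3.04 without the second. Of the 17 tested, 4 reached the minimum value in *S100A4*-/- only and 0 in WT only, so the count of 2 gives no support by itself. *Gabrd* was below the minimum value and was not tested.

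**Figure D4:**
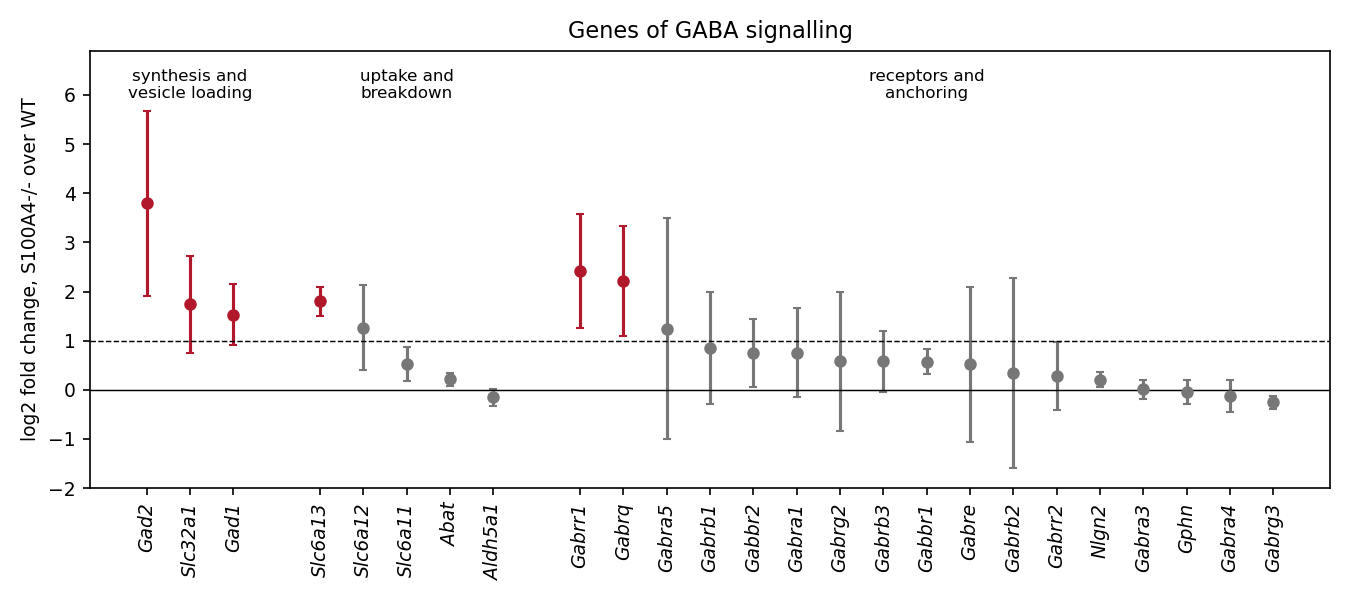
Log2 fold change (*S100A4*-/- over WT) of the genes for GABA synthesis, vesicle loading, uptake, breakdown, receptors and anchoring, with points for the limma estimate, bars for its 95% confidence interval and red for genes called higher. The 3 genes of synthesis and loading and *Slc6a13*, *Gabrr1* and *Gabrq* are in red. The other receptor genes have smaller changes or intervals that reach below a log2 fold change of 1. The intervals of *Gad1* (from 0.91) and *Slc32a1* (from 0.76), both called, also reach below 1.

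The plot of GABA genes sets the steps beside each other. Synthesis and loading had 3 of 3 genes called, uptake and breakdown 1 of 5, and receptors and anchors 2 of 17, beside 3.65% of all genes and 8.68% of genes in the range of the markers. The 3 calls of synthesis and loading were lost without the first or without the second *S100A4*-/- library, and no test compared the steps. *Gad2* and *Gabrr1*, 1 call each of synthesis and of receptors, reached the minimum value in *S100A4*-/- only. The median log2 fold change over the 22 tested genes other than the markers was 0.55, with 4 receptor genes that were tested only through *S100A4*-/-.

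Close relatives of the markers were compared as well, 21 genes in all, of which 14 were analysed and 4 called higher, or 2 without the first or without the second *S100A4*-/- library. The share of all genes tested that were called higher was 3.65%. *Slc17a7*, the vesicular glutamate transporter VGLUT1 of photoreceptors and bipolar cells, had values of 708 and 632 against 160 and 135 (log2 fold change 2.18). *Sncb*, beta-synuclein, had 136 and 174 against 44.9 and 38.3 (log2 fold change 1.87), while *Sncg*, as given above, was not called. The other 2 were *Slc17a8*, which reached the minimum value in *S100A4*-/- only, and *Ina*. DESeq2 called 3 of the 14, and limma called 3 without the first WT library, *Ina* being lost in both cases. *Nefh*, the heavy neurofilament subunit, had a log2 fold change of 0.98 (limma adjusted p = 0.140), and *Calb1*, calbindin, 1.84 (limma adjusted p = 0.0865). *Rbpms2*, the paralog of *Rbpms* that ganglion cells also make, had values of 36.0 and 19.3 against 31.3 and 32.8, so that its groups overlapped. The most highly expressed relatives were *Vim*, the filament protein of lens cells, *Tfap2a*, *Slc18a2* and *Gfap*, with log2 fold changes of -0.10, 0.02, -0.50 and -0.08. *Slc18a2* was lower by less than 2-fold (DESeq2 adjusted p = 1.29e-04). Limma called 0 of the 14 lower, with 2 lower at an unadjusted p under 0.05.

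Markers of other cells of the eye moved with the amacrine and ganglion cell markers, and their part in the result was not tested. Of 15 rod and cone genes, 14 were called higher, beside 3.65% of all genes tested. The rod and cone genes had a median log2 fold change of 1.81. Their summed values were 9762 and 9706 in *S100A4*-/- and 2455 and 2627 in WT. Their most abundant gene per length, *Gnat1*, the rod transducin, stood at 23.2 TPM in *S100A4*-/- and 5.17 in WT, far above any of the 10 markers. Of 9 bipolar genes tested, 3 were higher (median 0.92, summed values 3085 and 2854 against 2354 and 2300), and their most abundant gene, *Prkca*, had a log2 fold change of 0.04. Of 10 Müller glia genes, 5 were higher (median 1.06, summed values 88765 and 90592 against 83639 and 83937), with 90.7% of the sum in *Dkk3*, whose log2 fold change was 0.03. Only 2 of 7 horizontal cell genes were analysed, and both reached the minimum value in *S100A4*-/- only. Limma, DESeq2 and edgeR called neither, and 1 passed at an unadjusted p under 0.05. DESeq2 called 10 of the rod and cone genes, 1 bipolar gene and 5 Müller glia genes higher. Without the first or the second *S100A4*-/- library, 10 rod and cone genes and 5 Müller glia genes were called in either case, and 0 and 2 bipolar genes (the 0 with 3 at an unadjusted p under 0.05). Without the second WT library, 2 bipolar genes were called.

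The counts that follow stand beside 3.65% of all genes tested called higher. Outside the neural retina, 6 of 7 pigment cell genes tested (median 2.43, summed values 1693 and 1758 against 687 and 757) and 8 of 9 ciliary body genes (median 2.17, 5754 and 5254 against 1922 and 2233) were higher. Their most abundant genes per length were *Oca2*, with a log2 fold change of 0.00, and *Opn3*, with -0.34, and neither was called. Of 7 microglia genes, 4 were higher (median 1.30, 301 and 256 against 114 and 88.7), led per length by *C1qa*, and DESeq2 called 1 of the 7, *C1qa* not included (adjusted p = 0.0620). Of 6 endothelial genes tested, only *Kdr* was called (median 0.72, summed values of the 7 analysed 217 and 220 against 113 and 141), and *Cldn5* was the most abundant per length. Without the first or the second *S100A4*-/- library the calls were 2 and 3 for pigment cell, 7 and 7 for ciliary body, 0 and 0 for microglia and 0 and 1 for endothelial genes, with 3 and 5 microglia genes and 1 and 1 endothelial at an unadjusted p under 0.05. Without the first WT library 2 endothelial genes were called. By contrast, limma, DESeq2 and edgeR called none of the 14 lens genes, of which 2 were lower and 0 higher at an unadjusted p under 0.05, and their median log2 fold change was -0.05. Of the genes called higher in these lists, 1 rod and cone, 2 pigment cell and 1 endothelial gene reached the minimum value in *S100A4*-/- only. No gene analysed from these lists had 3 reads or fewer in all 4 libraries.

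**Figure D5:**
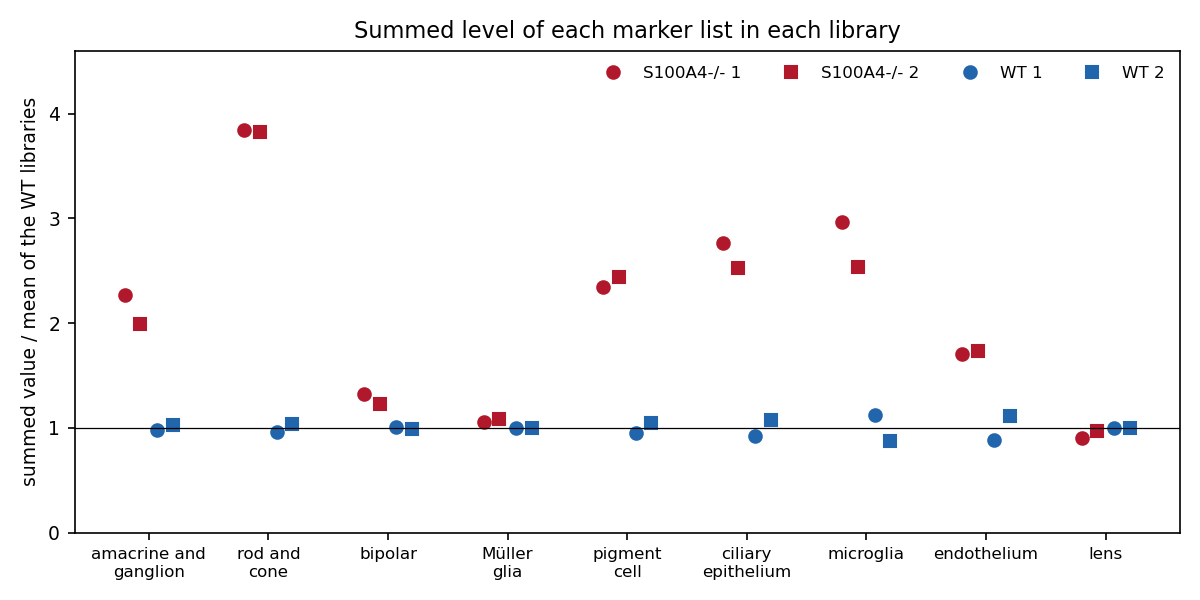
Summed value of each marker list in each library, divided by its mean over the 2 WT libraries, with circles for replicate 1 and squares for replicate 2, *S100A4*-/- in red and WT in blue. Of the 9 lists drawn, the red points lie above the blue points in all but that of the lens genes, by little for Müller glia and by most for rods and cones, with the 10 amacrine and ganglion cell markers between.

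A summed value follows its most abundant genes, in the plot of marker lists as well: *Pou4f1* for the 10 markers and *Dkk3* for Müller glia. Gene by gene, the log2 fold changes of the 10 markers ran from 0.20 to 3.80 and those of the rod and cone genes from 1.11 to 2.58. No difference between lists was tested.

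The genes outside all lists whose pattern over the 4 libraries lay nearest to the mean pattern of the markers were *Nptx2*, *Chst1*, *Fbn1*, *Vcam1* and *Cd74*, at distances of 0.090, 0.117, 0.157, 0.163 and 0.165 (Euclidean, on centred log2 values, among genes averaging 10 or more). The mean pattern of the markers was 0.93 and 0.78 above their own means in *S100A4*-/- and 1.08 and 0.63 below them in WT. *Nptx2* encodes neuronal pentraxin 2, a synaptic protein, and had values of 18.8 and 17.2 against 4.18 and 5.47. *Nptx2* and *Vcam1* were not called (limma adjusted p = 0.116 and 0.0883), while *Chst1*, *Fbn1* and *Cd74* were called higher. *Fbn1* encodes fibrillin 1 of the zonular fibers, and had 3258 and 2890 against 734 and 966.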

How the data were processed

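RNA of mouse lenses was measured by stranded mRNA-seq in 4 libraries. Per the labels and the methods of the study, reads were trimmed with Trim Galore, mapped with STAR to mm10 (GRCm38v73), counted per gene with HTSeq from reads of a single locus, and normalized with DESeq2, and genes that reached 10 reads somewhere were kept. The versions of these tools and the strand setting of HTSeq are not given in the sources used here. The authors deposited signal values, the counts of each gene over a size factor (1 for each library), not corrected for length. Whole multiples of 1 read made up 100% of the values (tolerance 0.05 reads), so reads were recovered by division.

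The main test was limma 3.58.1 (lmFit, eBayes with a trend) on log2(value + 1) in R 4.3.3, with p-values adjusted over 14780 genes. Limma was chosen for the signal values, in place of the count test of the study, which could also be run on the recovered reads. DESeq2 1.42.0 and edgeR 4.0.16 on those reads were alternatives, edgeR calling 553 genes higher and 11 lower and DESeq2 421 and 6. Other alternatives were pseudocounts of 0.5 and 5, no filter, a mean value of at least 50, TMM, equal totals and quantile scaling, no trend, a replicate block, no fold threshold, and each library left out. TPM was computed here from recovered reads and the exonic length in GENCODE M21, which also gave positions. The labels do not say which animals gave each pool, so p-values measure the spread between pools. Intervals of read ratios and the floor of 3 reads cover counting error only. Levels of all libraries came from 1 table, and 0 of its columns were without a sample. Scripts were tested on simulated data. Members and lists were chosen with earlier results of these data known. The genes named are the 10 members, *S100a4*, the called genes and the 4 highest in mean value of each related list, the most abundant gene per length of each other list, and the 5 nearest in pattern. *Nefh*, *Calb1*, *Rbpms2*, *Slc17a6*, *Gabbr1*, *Gabrd*, *Slc6a12*, *Kdr* and the lens gene *Mip* fall outside this rule or were chosen after their values were seen, and so were the examples of genes not analysed. Some genes are not reported here and were taken out of the lists, with the counts computed again, after results were first seen.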

Additional observations from a re-analysis of the deposited data

How the results depend on the processing

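No marker changed direction under any alternative. The main counts were 7 markers higher, 5 other amacrine genes higher and 1 lower, 6 other ganglion genes higher, 3 genes of GABA uptake, breakdown and receptors higher, and 539 of all genes higher and 11 lower. Without the trend of variance, limma called 0 markers, 2 and 0 amacrine, 1 ganglion and 0 GABA genes, and 174 and 7 of all genes. A mean value of at least 50 left 4 markers and called 3 of them, 2 amacrine, 0 ganglion and 1 GABA gene, and 281 and 6 of all genes, since fewer genes were tested. Quantile normalization called 3 ganglion genes and 377 higher and 23 lower among all genes, and DESeq2 called 6 lower among all genes. With no fold threshold, 831 and 197 genes passed, with 2 amacrine, 1 ganglion and 1 GABA gene lower and 5 GABA genes higher. Leaving out each library gave 0 to 7 markers, 2 to 5 amacrine genes higher and 0 to 1 lower, 0 to 6 ganglion genes, 1 to 4 GABA genes, and 168 to 546 genes higher and 4 to 13 lower over all genes, the low ends without an *S100A4*-/- library. A group left with a lone library is assumed there to vary like the other group. Where no cause is named, the cause was not tested.

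The replicate numbers gave no sign of pairing: deviations of the first *S100A4*-/- and first WT library from their group means correlated at 0.01 over the genes tested. With the replicate block, limma called 8 markers, *Nefm* added (adjusted p = 0.0302), and 576 genes higher and 15 lower. A pseudocount of 5 also gave 8 markers. Over all alternatives, 127 of the markers' results kept their side of the threshold, 24 lost the call and 3 gained it, all 3 for *Nefm*. Values of 0 to 10 reads in WT limit *Gad2*, *Tfap2b* and *Slc32a1*. In the first WT library *Rbpms* and *Nefm* fell in that range as well, with 7 and 9 reads.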
